A study of Mus musculus with 49 samples.

Results

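The comparison described here sets bladders of female C57Bl/J mice given 50 ppm arsenate in their drinking water for 12 weeks (5 arrays) against bladders of mice given plain water over the same time (5 arrays). The arrays were taken by the dose and harvest in their labels, and they are 10 of the 49 arrays of the series. The whole series holds water and arsenate at 0.5, 2, 10 and 50 ppm, each with a harvest at 1 week and at 12 weeks, and 4 or 5 arrays a group. All mice were adult females of the same strain, aged 155 days at the 12-week harvest and 76 days at the 1-week harvest, killed with CO2, and each array holds the RNA of 1 whole bladder without pooling. Mouse labels open with a number that is the same throughout a group and whose meaning is not stated, so dose and whatever it marks cannot be told apart.

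Arsenate is an inorganic pentavalent arsenic salt that enters cells through phosphate transporters. It is reduced to arsenite, methylated by the methyltransferase As3mt and excreted in urine, which brings arsenic and its methylated forms into contact with the urothelium, the lining of the bladder. Arsenite binds thiol groups and is known for inducing Hmox1, metallothioneins and heat shock proteins in many cells. Immediate early genes such as Egr1, Fos and Ccn1 are switched on within minutes by growth factors, stretch and tissue handling through the factors SRF and CREB, without new protein synthesis.

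After 12 weeks, the genes that were lower at 50 ppm with the largest folds were immediate early genes: Egr1 was 7.32-fold lower, Ccn1 7.16-fold, Nr4a1 3.71-fold and Fos 3.68-fold. Among the genes that were higher were Klf9, a steroid and thyroid hormone responsive transcription factor, at 2.20-fold, and the regulators Foxo3 and Wwtr1 at 1.46-fold and 1.60-fold. Hmox1 rose 1.58-fold, while Mt2 fell and no heat shock protein passed the test with 1 probe set a gene. In all, 594 of 14618 genes tested passed an adjusted p of 0.05 in limma, 4.06% of them, with 335 higher (2.29%) and 259 lower (1.77%) at 50 ppm. Such genes are called changed below, and their adjusted p-values come from limma. The 5 arsenate and 5 water arrays did not overlap for 855 genes (5.85%), 440 of them higher (3.01%) and 415 lower (2.84%). Of the called genes, 257 differed by at least 1.5-fold and 45 by at least 2-fold, 19 of them higher and 26 lower. Levels are given as log2(signal + 16), which has a floor of 4 and understates the fold of dim genes, and changes are 50 ppm minus water on that scale with their standard error. The median change over all genes was -0.0359. An unadjusted p under 0.05 in limma was found for 3528 of the 14618 genes.

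The tissue carried the markers of whole bladder. The uroplakin Upk1b, a plaque protein of the umbrella cells, averaged 14.92 ± 0.20 at 50 ppm and 14.82 ± 0.15 in water, and the smooth muscle actin Acta2 averaged 15.45 ± 0.22 at 50 ppm and 15.16 ± 0.15 in water (SD, n = 5 each). Water replicate 2 stood apart, with an array median of 6.691 against 6.936 to 6.974 in the other water arrays, and without it 47 genes were called. The poly-A spikes, bacterial transcripts added to the RNA as a labelling control, averaged 9.953 at 50 ppm and 10.81 in water, a difference of -0.861 (exact two-sided permutation test, p = 0.0159, adjusted over 6 measures 0.0477). The hybridization controls averaged 11.96 at 50 ppm and 11.46 in water, with no overlap (exact permutation p = 0.00794, the smallest that 5 against 5 arrays allow, adjusted 0.0476). With the poly-A level as a covariate, 1 gene was called, Riok2. It was not among the 594 genes (change -0.293, limma adjusted p = 0.514 without the covariate), so none of the 594 remained called. Of the 594 changes, 586 kept their sign, and the median ratio of their size to that without the covariate was 0.525. Genes named above differed: with the covariate Wwtr1 was at 0.25 against 0.68 without it, and Klf9 at 0.66 against 1.14. Foxo3 was at 0.57 against 0.55, and Hmox1 at 0.74 against 0.66. RNA integrity averaged 9.52 at 50 ppm and 9.58 in water (exact permutation p = 0.722). The part of the spike difference in the gene changes was not tested further.

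Each of the 10 arrays was also left out in turn. Between 47 genes (without water replicate 2) and 1617 genes (without water replicate 1) were then called. Of the 594 genes, 34 (0.233% of those tested) were called in every one of these fits, 22 higher and 12 lower, and 2 were called in none. Of the gene lists below, those of smooth muscle, clock, NRF2, metal response, arsenic handling, cell cycle, matrix, unfolded protein response, p53 and proteasome genes each held 0 called members without water replicate 2. Counts out of 10 beside a gene below are the number of these fits in which it was called again. The number of arrays limits the precision: the median standard error of a change was 0.163.

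**Figure D1:**
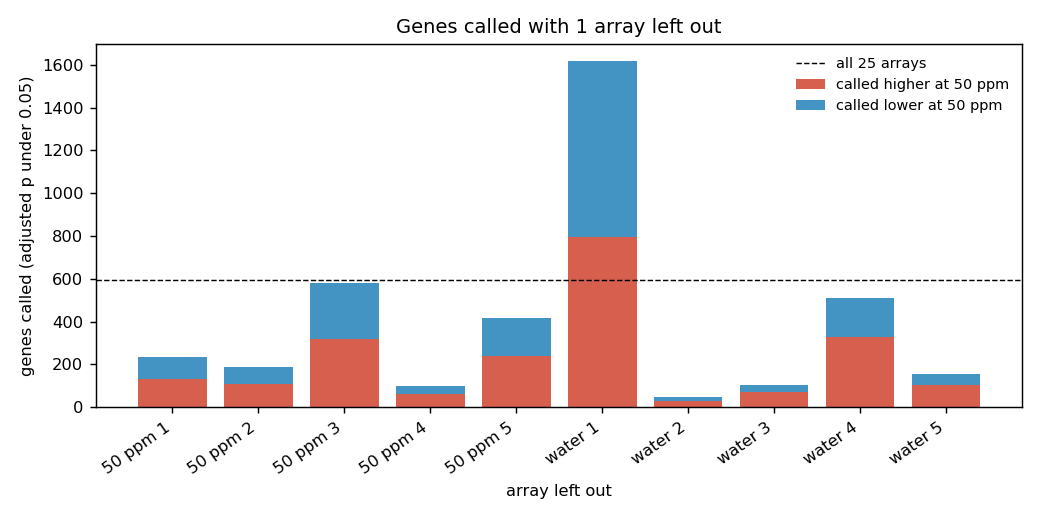
Number of genes called at an adjusted p under 0.05 (y axis) when the array named on the x axis was left out, split into genes higher and genes lower at 50 ppm; the dashed line marks the 594 genes called with all 25 arrays of the 12-week harvest. The bar without water replicate 1 reaches 1617 genes and the bar without water replicate 2 holds 47.

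Of the immediate early genes, 49 were tested, and 9 were called, all lower at 50 ppm (18.4%, against 1.77% of all genes called lower). The median change of the 49 was -0.338, 35 of the 49 had a lower mean at 50 ppm, and the groups did not overlap for 11 of them, all lower (against 2.84% of all genes). Between 3 and 16 members were called lower when 1 array was left out, and 3 without water replicate 2. With the poly-A level as a covariate the median of the list was 0.0438, so that its direction turned, and none of its members was called. In that fit Egr1 was at -1.85 ± 0.43, with an adjusted p of 0.122. Ccn1 stood at -2.27 ± 0.58 and Fos at -1.17 ± 0.38, with adjusted p-values of 0.157 and 0.272.

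The 250 bases before the transcription start are shown for Fos, Ccn1, Dusp1 and Nr4a1, the called members with the largest falls for which RefSeq gave a single start, because CREB, which binds the half-site TGACG, is a known regulator of such genes. Capitals mark TGACG on either strand, so that CGTCA is the same motif read on the other strand, and overlapping matches run together. Sequences are from RefSeq on GRCm38.p6 and read 5′ to 3′ along the gene: Fos at chr12:85473640-85473889 on the plus strand, Ccn1 at chr3:145649986-145650235 on the minus strand, Dusp1 at chr17:26508473-26508722 on the minus strand and Nr4a1 at chr15:101266596-101266845 on the plus strand.
Fos: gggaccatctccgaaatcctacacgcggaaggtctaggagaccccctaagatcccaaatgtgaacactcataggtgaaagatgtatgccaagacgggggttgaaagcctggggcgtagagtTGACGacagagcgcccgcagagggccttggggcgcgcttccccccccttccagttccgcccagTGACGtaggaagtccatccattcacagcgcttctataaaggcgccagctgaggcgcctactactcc
Ccn1: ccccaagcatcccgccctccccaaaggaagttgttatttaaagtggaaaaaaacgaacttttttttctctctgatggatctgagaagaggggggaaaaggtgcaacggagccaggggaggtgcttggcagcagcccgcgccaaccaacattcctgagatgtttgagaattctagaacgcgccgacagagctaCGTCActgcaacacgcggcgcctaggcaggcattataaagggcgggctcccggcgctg
Dusp1: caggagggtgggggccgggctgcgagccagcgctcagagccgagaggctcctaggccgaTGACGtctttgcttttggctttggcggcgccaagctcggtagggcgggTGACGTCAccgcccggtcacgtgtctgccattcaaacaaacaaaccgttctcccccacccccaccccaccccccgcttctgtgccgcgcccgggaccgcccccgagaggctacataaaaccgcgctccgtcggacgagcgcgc
Nr4a1: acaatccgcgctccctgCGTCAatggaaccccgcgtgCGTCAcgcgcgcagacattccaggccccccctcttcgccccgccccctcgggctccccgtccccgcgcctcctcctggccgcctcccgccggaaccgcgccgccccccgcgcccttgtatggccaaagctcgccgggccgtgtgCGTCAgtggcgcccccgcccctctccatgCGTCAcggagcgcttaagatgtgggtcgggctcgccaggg
The matches began at bases -129 and -66 from the start in Fos, at -58 in Ccn1, at -191, -143 and -140 in Dusp1, where the last of these overlap as a palindrome, and at -233, -213, -69 and -40 in Nr4a1. Of the 9 called members, 7 were in the promoter table and 6 had a single window. TGACG was found in 5 of these 6 windows (83.3%), in 25.7% of the 9344 windows of all tested genes with a single start, in 27.7% of the windows of genes called higher and in 26.2% of those called lower. Zfp36 was the member without a match. The motif was chosen because it is known for such genes, and immediate early genes that were not called were not counted. The share therefore cannot set the called members apart from the others. A match describes the letters of the window and nothing more.

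Egr1, a zinc finger transcription factor induced by growth factors and stretch, had 9.43, 9.78, 9.98, 9.17 and 10.25 in the 5 bladders at 50 ppm, against 11.89, 13.34, 12.41, 12.79 and 12.56 in water. Every arsenate bladder lay more than 1 unit below every water bladder, a change of -2.87 ± 0.34 (adjusted p = 7.82e-05, called in 10 of 10 fits). Ccn1, formerly Cyr61, a secreted matrix protein that binds integrins, had 7.37, 7.79, 8.25, 7.08 and 7.95 at 50 ppm, against 10.64, 11.22, 9.06, 10.69 and 11.01 in water. The groups did not overlap, though water replicate 3 lay well below its group, and the change was -2.84 ± 0.40 (adjusted p = 0.000916, 10 of 10). The gene's 4 probe sets gave changes of -2.84 to -0.33, and 2 of them were called when every probe set was tested.

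Fos, a partner in the AP-1 transcription factor, had 10.88, 10.86, 10.87, 11.16 and 11.44 at 50 ppm, against 12.48, 13.83, 12.38, 12.96 and 12.97 in water. The arsenate arrays lay within a narrow band below all water arrays, a change of -1.88 ± 0.28 (adjusted p = 0.00197, 10 of 10). Nr4a1, an orphan nuclear receptor, had 8.84, 9.67, 10.80, 9.23 and 9.55 at 50 ppm, against 10.80, 12.34, 10.81, 11.62 and 11.97 in water. Arsenate replicate 3 lay at the level of the lowest water arrays, and the change of -1.89 ± 0.51 (adjusted p = 0.0373) was called in 2 of the 10 fits. Dusp1, a phosphatase that switches off MAP kinases, had 10.44, 10.63, 11.37, 11.40 and 10.96 at 50 ppm, against 11.87, 12.80, 11.84, 12.09 and 12.13 in water. It fell by 1.19 on the log2 scale (adjusted p = 0.0161, 9 of 10).

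Klf2, a transcription factor of endothelium and T cells that shear stress induces, averaged 9.46 ± 0.29 at 50 ppm and 10.50 ± 0.44 in water (SD, n = 5 each; change -1.05 ± 0.21, adjusted p = 0.0159, 9 of 10). Ier2, a nuclear immediate early protein, changed by -0.67 ± 0.15 (7 of 10) and Zfp36, which directs the decay of AU-rich cytokine messages, by -0.58 ± 0.14 (4 of 10). Csrnp1 changed by -0.91 ± 0.26 (3 of 10), with groups that overlapped. Members that were not called included the zinc finger factors Egr2 at -1.11 and Egr3 at -1.14, the stress factor Atf3 at -1.28 and the AP-1 subunit Jun at -0.36. Nr4a3, a relative of Nr4a1, stood on the other side at 1.15 ± 0.41 (adjusted p = 0.0896).

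**Figure D2:**
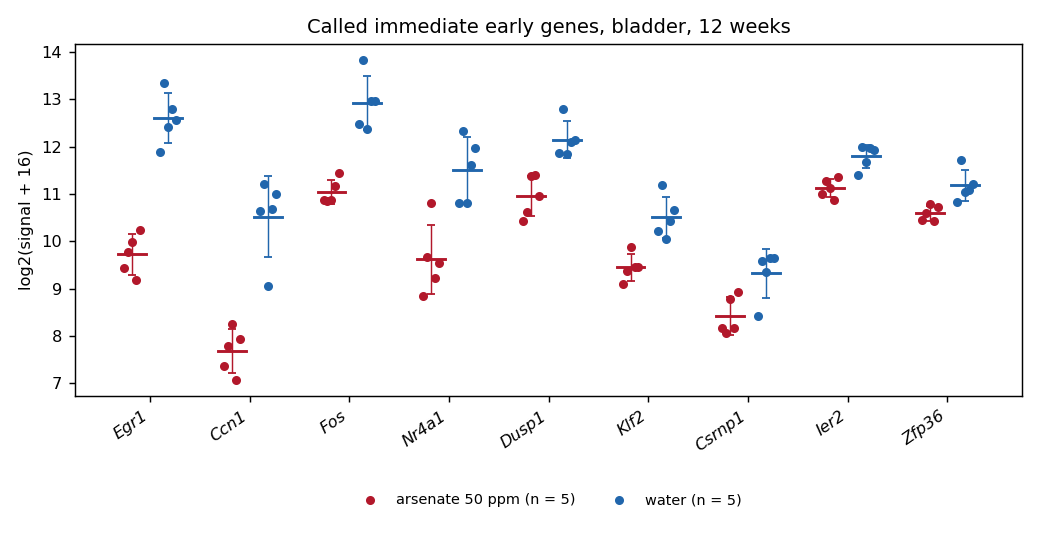
Levels of the 9 called immediate early genes as log2(signal + 16) (y axis) in each bladder at 50 ppm (red) and in water (blue) at 12 weeks; points are mice, long bars are means and thin bars are SD, n = 5 each. Egr1 lies at or below 10.25 in every bladder at 50 ppm and at or above 11.89 in every water bladder.

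The lower doses and the 1-week harvest place these levels. At 12 weeks Egr1 averaged 12.60 in water, 12.05 at 0.5 ppm, 10.89 at 2 ppm, 9.78 at 10 ppm and 9.73 at 50 ppm. The 10 and 50 ppm means differed by less than the SD of either group, 0.317 and 0.428. Fos averaged 12.92 in water, 11.77 at 0.5 ppm, 11.02 at 2 ppm, 11.43 at 10 ppm and 11.04 at 50 ppm. Ccn1 averaged 10.53 in water, 8.94 at 0.5 ppm, 8.01 at 2 ppm, 8.13 at 10 ppm and 7.69 at 50 ppm. For Fos and Ccn1 the water mean was the highest of the 5, the arrays at 0.5 ppm overlapped those in water, and the 0.5 ppm difference was not called (adjusted p = 0.053 and 0.0552). Both were called lower than water at 2 ppm (adjusted p = 0.00482 and 0.00737) and at 10 ppm (adjusted p = 0.0186 and 0.00529). Egr1 was called lower than water at 10 ppm (adjusted p = 0.000116) but not at 2 ppm (adjusted p = 0.124). These falls were therefore not limited to 50 ppm. Set directly against the mean of the 3 lower doses, 50 ppm differed by -1.18 ± 0.28 for Egr1, -0.67 ± 0.33 for Ccn1 and -0.36 ± 0.23 for Fos, none of them called (adjusted p = 0.133, 0.495 and 0.618).

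At 1 week Egr1 averaged 10.18 at 50 ppm and 10.79 in water, and Ccn1 averaged 9.50 at 50 ppm and 9.75 in water. The 50 ppm difference at 12 weeks was larger than that at 1 week by -2.26 ± 0.48 for Egr1 (adjusted p = 0.00469), by -2.58 ± 0.74 for Ccn1 (adjusted p = 0.0269) and by -1.04 ± 0.30 for Klf2 (adjusted p = 0.029) in a fit of all 49 arrays. For Fos this difference between harvests was -1.15 and was not called (adjusted p = 0.0917). The Egr1 level of water bladders themselves was 12.60 at 12 weeks and 10.79 at 1 week.

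Glucocorticoid target genes moved in both directions. Of 21 tested, 4 rose and 3 fell (33.3% called, against 4.06% of all genes), the median change was 0.309, and without water replicate 2 the counts were 2 and 1. Klf9 had 11.54, 12.11, 11.78, 11.86 and 11.97 at 50 ppm, against 11.07, 10.18, 10.54, 11.01 and 10.76 in water. All arsenate bladders lay above all water bladders, a change of 1.14 ± 0.19 (adjusted p = 0.00481, 10 of 10), and over the gene's 7 probe sets changes ran from 0.07 to 1.14. Klf15, a regulator of amino acid and lipid use in fasting, had 8.98, 9.22, 9.89, 9.57 and 9.04 at 50 ppm, against 8.16, 8.92, 8.62, 8.10 and 6.04 in water. Water replicate 5 was far below its group, and the change of 1.37 ± 0.36 (adjusted p = 0.0346) was called in 4 of 10 fits and was 0.89 at its smallest.

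Tsc22d3, known as GILZ, a mediator of glucocorticoid action in leukocytes, changed by 0.58 ± 0.14 (adjusted p = 0.024, 7 of 10), with groups that overlapped and probe sets from -0.39 to 0.72. Zbtb16, also called PLZF, changed by 0.78 ± 0.21 (adjusted p = 0.037, 2 of 10). On the other side, Ddit4, a stress-induced inhibitor of mTORC1 also called REDD1, had 10.64, 10.59, 10.86, 10.77 and 10.56 at 50 ppm, against 10.97, 11.18, 11.44, 11.28 and 11.31 in water. The groups did not overlap, and the change was -0.55 ± 0.11 (adjusted p = 0.0124, 10 of 10). Dusp1 and Mt2, described elsewhere, were the other members that fell. Fkbp5 and Pdk4, targets often used as readouts of the receptor, were at 0.37 and 0.48 and were not called.

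Genes of FOXO and insulin signalling gave 4 rises and 0 falls of 23 tested (17.4%, against 4.06% of all genes), with a median change of 0.151, and 2 rises without water replicate 2. Foxo3, a transcription factor that insulin keeps out of the nucleus through Akt, had 10.98, 11.05, 10.72, 11.09 and 11.44 at 50 ppm, against 10.55, 10.57, 10.32, 10.59 and 10.50 in water. The groups did not overlap (change 0.55 ± 0.11, adjusted p = 0.0165, 10 of 10), and its 3 probe sets ran from -0.20 to 0.55. Across doses Foxo3 averaged 10.51 in water, 10.50 at 0.5 ppm, 10.26 at 2 ppm, 11.11 at 10 ppm and 11.05 at 50 ppm, so that 10 and 50 ppm lay together above the others. Pik3r1, the regulatory subunit of PI3 kinase, changed by 0.56 ± 0.14 (4 of 10) and Igf1r, the receptor of insulin-like growth factor, by 0.41 ± 0.12 (2 of 10). The 5 probe sets of Igf1r ran from -0.20 to 0.41, and 0 of them were called when every probe set was tested. Klf15 is counted in this list too.

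In the list of YAP components and targets, 4 of 22 rose and 3 fell (31.8%, against 4.06% of all genes), and the median was 0.0691. Without water replicate 2 the counts were 1 and 1. Over the list, 12 members had a higher and 10 a lower mean at 50 ppm, with changes from -2.84 to 1.5. The called members that rose were Wwtr1, Tead1 and Yap1 of the transcriptional machinery and the target Nt5e. Wwtr1, the coactivator TAZ, had 12.04, 12.28, 12.06, 12.02 and 11.67 at 50 ppm, against 11.55, 10.99, 11.26, 11.59 and 11.27 in water. Its groups did not overlap, with a change of 0.68 ± 0.12 (adjusted p = 0.00664, 10 of 10), and its 3 probe sets ran from 0.02 to 0.68. Tead1, the DNA-binding partner of YAP and TAZ, changed by 0.71 ± 0.17 (6 of 10), Yap1 by 0.28 ± 0.08 (2 of 10) and the ectonucleotidase Nt5e by 0.85 ± 0.23 (3 of 10). The 2 probe sets of Yap1 were at 0.08 and 0.28, and the 3 of Nt5e ran from 0.57 to 0.85. For both genes, 0 probe sets were called when every probe set was tested. The called members that fell were targets and adaptors, so called targets went both ways. Beside Ccn1 these were Ajuba, a LIM protein that restrains LATS kinases, at -1.24 ± 0.35 (3 of 10) and Amotl2, a junctional partner of YAP, at -0.88 ± 0.25 (3 of 10). Ccn2, another classical target, was at -0.34 ± 0.36 and was not called.

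The clock list gave 2 rises of 22 tested (9.09%, against 2.29% of all genes) and a median of 0.109. Clock, the partner of Bmal1 in the core oscillator, changed by 0.75 ± 0.19 (adjusted p = 0.0291, 4 of 10) and Rora, a nuclear receptor that drives Bmal1, by 0.95 ± 0.26 (adjusted p = 0.0406, 3 of 10). The 9 probe sets of Rora ran from -0.06 to 0.95, and 0 of them were called when every probe set was tested. The 4 of Clock ran from 0.27 to 0.75, with 1 called. With the poly-A level as a covariate both were close to no change, Clock at 0.04 ± 0.20 and Rora at 0.12 ± 0.32. Cry2, a repressor of the loop, was at -0.42 ± 0.13 and was not called. The hour of harvest is not given in the sources used here, so its part in these differences was not tested.

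**Figure D3:**
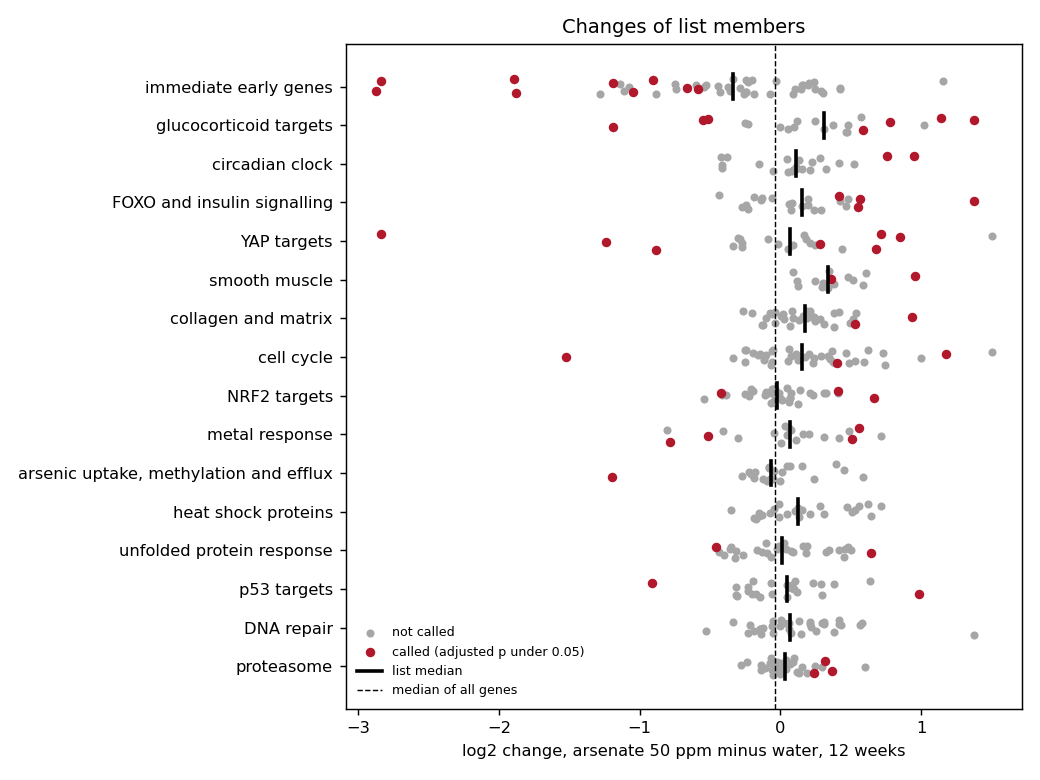
Change of each tested member of 16 gene lists, 50 ppm minus water at 12 weeks on the log2(signal + 16) scale (x axis), with lists in rows; red points are called genes, grey points are not, black ticks are list medians and the dashed line is the median of all genes at -0.0359. The immediate early genes extend to -2.87, and their median of -0.338 lies left of that of every other list shown.

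Among 34 NRF2 targets tested, the antioxidant genes that electrophiles induce, 2 rose and 1 fell (8.82%, against 4.06% of all genes), and the median was -0.0252. Hmox1, which degrades heme, had 9.08, 9.11, 9.02, 8.80 and 9.51 at 50 ppm, against 8.80, 8.38, 8.55, 8.35 and 8.12 in water. Arsenate replicate 4 stood at the level of water replicate 1 and the others were apart, with a change of 0.66 ± 0.15 (adjusted p = 0.0201, 8 of 10). Hmox1 averaged 8.61 at 50 ppm and 8.39 in water at 1 week, and the change between harvests was not called (adjusted p = 0.218). Ugdh, which makes UDP-glucuronate for conjugation, changed by 0.41 ± 0.10 (5 of 10), and Gstm2, a glutathione transferase, by -0.42 ± 0.11 (3 of 10). Nqo1 was at 0.41 ± 0.14 (adjusted p = 0.0781) and Gclm, which limits glutathione synthesis, at 0.07 ± 0.08.

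The metal response list gave 2 rises and 2 falls of 20 tested (20.0%, against 4.06% of all genes), with a median of 0.0677. Mt2, a metallothionein that binds zinc and other metals, had 11.81, 11.78, 11.59, 11.58 and 12.15 at 50 ppm, against 12.24, 12.35, 12.12, 12.19 and 12.57 in water. Arsenate replicate 5 lay within the water range and the others below it, a change of -0.51 ± 0.14 (adjusted p = 0.0342, 3 of 10). Mt1 was at -0.30 ± 0.13 and was not called (adjusted p = 0.154), and its 2 probe sets gave changes of opposite sign, -0.30 and 0.30. The window of Mt2 is shown because the metal-responsive factor Mtf1 acts through metal response elements in metallothionein promoters. It lies at chr8:94172368-94172617 on the plus strand, with RefSeq sequence on GRCm38.p6, and capitals mark the core TGCGCNC or TGCACNC on either strand.
Mt2: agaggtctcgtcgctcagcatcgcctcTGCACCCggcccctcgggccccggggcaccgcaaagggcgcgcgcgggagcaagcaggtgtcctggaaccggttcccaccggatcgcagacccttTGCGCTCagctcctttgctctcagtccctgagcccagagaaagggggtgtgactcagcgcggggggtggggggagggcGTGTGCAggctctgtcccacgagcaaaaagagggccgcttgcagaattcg
The 3 matches began at -223, -128 and -50, and 29.3% of the 9344 windows of all tested genes hold at least 1 match to either core. Mtf1 itself changed by 0.51 ± 0.14 (1 of 10) and the zinc exporter Slc30a1 by 0.56 ± 0.15 (4 of 10). The 5 probe sets of Mtf1 ran from -0.14 to 0.76, and 0 of them were called when every probe set was tested. The 2 probe sets of Slc30a1 went opposite ways, -1.59 and 0.56, and both were called when every probe set was tested, so the gene has no single direction here. The zinc importer Slc39a4 changed by -0.78 ± 0.19 (4 of 10).

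Of 22 genes of arsenic uptake, methylation and efflux, 1 was called (4.55%, near the 4.06% of all genes). It was the aquaglyceroporin Aqp7, a channel for glycerol and arsenite, at -1.20 ± 0.34 (adjusted p = 0.0436, 2 of 10). Its mean of 4.71 at 50 ppm lay near the floor, against 5.91 in water, so the size of this change depends on the offset. As3mt averaged 8.65 ± 0.10 at 50 ppm and 8.71 ± 0.24 in water (SD, n = 5 each), a difference of -0.05 ± 0.14. Aqp3, a channel abundant in urothelium, was at 0.24 ± 0.12 and was not called.

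No heat shock protein of 25 tested was called at an adjusted p under 0.05, with a median change of 0.124. Between 0 and 5 rises were called when 1 array was left out. An unadjusted p under 0.05 in limma was found for 7 of the 25, near the share of all genes (3528 of 14618). Hspb7 came nearest at 0.62 ± 0.18 (adjusted p = 0.051), and Hspa8, the constitutive chaperone Hsc70, was at 0.28 ± 0.09. When every probe set was tested, 1 of 3 of Hspb7 (0.34 to 0.69) and 1 of 4 of Hspa8 (-0.78 to 0.28) were called. In the unfolded protein response, 1 of 30 rose, the disulfide isomerase Pdia4 at 0.65 ± 0.19 (0 of 10), and 1 fell, the sensor kinase Ern1 at -0.46 ± 0.10 (7 of 10), together 6.67% against 4.06% of all genes. The 2 probe sets of Pdia4 went opposite ways, -1.25 and 0.65, and 1 of them was called when every probe set was tested. Among 25 p53 targets 1 rose and 1 fell (8%, against 4.06% of all genes). The proapoptotic Pmaip1, or Noxa, changed by 0.98 ± 0.23 (8 of 10) and the G2 arrest gene Rprm by -0.91 ± 0.24 (3 of 10). Cdkn1a, the p21 inhibitor of cyclin kinases, was at -0.23 ± 0.15 and was not called. None of 34 DNA repair genes was called in limma, with a median of 0.0688 and 8 at an unadjusted p under 0.05, again near the share of all genes.

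Of 42 cell cycle genes, 2 rose and 1 fell (7.14%, against 4.06% of all genes), with a median of 0.149. Pcna, the sliding clamp of DNA replication, had 12.47, 12.60, 12.48, 12.60 and 12.79 at 50 ppm, against 12.36, 12.04, 12.18, 12.16 and 12.19 in water. All arsenate bladders lay above all water bladders, a change of 0.40 ± 0.09 (adjusted p = 0.0183, 9 of 10). By dose Pcna averaged 12.19 in water, 12.18 at 0.5 ppm, 12.25 at 2 ppm, 12.49 at 10 ppm and 12.59 at 50 ppm. Cenpq, a centromere protein, changed by 1.18 ± 0.34 (3 of 10) and Ccna1, a germline cyclin, by -1.52 ± 0.43 (2 of 10). The thymidylate synthase Tyms was at 0.73 ± 0.22 and the mitotic kinase Cdk1 at 0.74 ± 0.24, and neither was called. Of 31 proteasome subunits, Psma3, Psmd6 and Psmb2 rose, by 0.24, 0.37 and 0.32 (9.68%, against 2.29% of all genes called higher), and the median was 0.0353. The 2 probe sets of Psmd6 were at 0.04 and 0.37, and 0 of them were called when every probe set was tested.

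Markers of tissue layers were compared in the same way. In a whole bladder, more cells of a type and more RNA per cell cannot be told apart. All 16 smooth muscle markers had a higher mean at 50 ppm, with a median change of 0.34. An unadjusted p under 0.05 in limma was found for 13, against 3528 of all 14618 genes. Of the 16, 2 were called (12.5%, against 2.29% of all genes called higher). These were the filament protein Synm at 0.96 ± 0.25 (3 of 10) and tropomyosin Tpm1 at 0.36 ± 0.10 (2 of 10). The 4 probe sets of Tpm1 ran from -0.26 to 0.36, and 0 of them were called when every probe set was tested. The mean of the 16 ran from 13.53 to 13.93 over the arsenate arrays and from 13.05 to 13.43 over the water arrays. The median was 0.384 without water replicate 2 and 0.333 with the poly-A level as a covariate. The myosin kinase Mylk was at 0.38 ± 0.11 (adjusted p = 0.0536). None of the 16 superficial urothelium markers was called, with a median of 0.0172 and 2 at an unadjusted p under 0.05 in limma, and their mean ran from 13.33 to 13.73 at 50 ppm and from 13.39 to 13.59 in water. None of 9 basal urothelium and 12 fibroblast markers was called, with 4 and 3 at an unadjusted p under 0.05 in limma. Of 36 collagen and matrix genes, the collagen cross-linking oxidase Lox at 0.93 ± 0.24 and the metalloproteinase inhibitor Timp3 at 0.53 ± 0.14 were called (4 of 10 each; 5.56%, near the 4.06% of all genes), and the median was 0.173. With the poly-A level as a covariate Lox was at 0.03 ± 0.27 and Timp3 at 0.22 ± 0.18. The 3 probe sets of Lox ran from -0.15 to 1.08, and 2 of them were called when every probe set was tested. How far the level of smooth muscle RNA enters other changes was not tested.

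The rises described next were the largest among called genes whose groups did not overlap and whose lower group mean was at least 6. Emb, or embigin, a partner of monocarboxylate transporters, had 7.46, 7.50, 7.73, 8.63 and 8.25 at 50 ppm, against 7.42, 6.35, 6.41, 6.17 and 6.29 in water. Water replicate 1 stood just below the lowest arsenate array and far above its group, with a change of 1.39 ± 0.30 (adjusted p = 0.0183, 8 of 10), and its 3 probe sets ran from -0.80 to 1.39. Sgms1, a sphingomyelin synthase, had 9.44, 9.66, 9.58, 9.74 and 9.84 at 50 ppm, against 9.03, 8.21, 8.17, 8.51 and 8.35 in water. The groups were apart, with a change of 1.20 ± 0.20 (adjusted p = 0.00481, 10 of 10). The uncharacterized 4932431P20Rik changed by 1.03 ± 0.16 (adjusted p = 0.00331, 10 of 10) and D830012I24Rik by 1.16 ± 0.22 (adjusted p = 0.0118, 10 of 10). The 2 probe sets of 4932431P20Rik went opposite ways, -0.20 and 1.03, and 1 of them was called when every probe set was tested.

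The other large rises were Lrch2 at 1.24 (4 of 10), the Hippo pathway adaptor Mob1b at 1.06 (7 of 10), the splicing factor Rbm25 at 1.05 (5 of 10), the 5-methylcytosine dioxygenase Tet2 at 1.01 (9 of 10), the scaffold Homer1 at 1.01 (9 of 10) and the splicing repressor Ptbp2 at 1.00 (6 of 10). Rises called in all 10 fits also included the elongation kinase Cdk12 at 0.84, the actin regulator Mtpn at 0.83, the R-spondin receptor Lgr4 at 0.79 and Gsk3b, a kinase of the Wnt and insulin pathways, at 0.71. Several of these genes have probe sets that differ: the 6 of Gsk3b ran from 0.05 to 0.71, the 7 of Cdk12 from -0.25 to 1.22 and the 6 of Rbm25 from 0.15 to 1.05. The promoter windows of the 206 genes called higher with a single start had a median GC content of 65%, against 59.2% over the 9344 windows of all tested genes and 60.2% over the 172 windows of genes called lower.

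Of the falls beyond the immediate early genes, Slc25a25, a calcium-regulated mitochondrial ATP-magnesium carrier, had 7.40, 8.07, 8.02, 8.17 and 8.04 at 50 ppm, against 8.64, 8.87, 9.14, 8.52 and 9.08 in water. The groups were apart, with a change of -0.91 ± 0.17 (adjusted p = 0.0118, 10 of 10). Yipf2, a Golgi membrane protein, changed by -0.85 ± 0.14 (adjusted p = 0.00481), Mansc1 by -0.63 ± 0.13, the U2 spliceosome subunit Sf3a2 by -0.60 ± 0.12 and the ubiquitin ligase Cblc by -0.59 ± 0.10, each in 10 of 10 fits. The pseudokinase Ulk4 at -0.80 (5 of 10) and the palmitoyltransferase Zdhhc9 at -0.78 (6 of 10) were the smallest of the 12 largest falls among called genes with groups apart and a lower group mean of at least 6, a limit that leaves out larger falls such as that of Ccna1. Probe sets differed here too: the 3 of Slc25a25 ran from -0.91 to -0.04 and the 2 of Yipf2 from -0.85 to -0.07. Those of Zdhhc9 were at -0.78 and 0.07. The 2 of Ulk4 were at -0.80 and -0.18, and 0 of them were called when every probe set was tested. Those of Sf3a2 (-0.60 and -0.56) and Cblc (-0.59 and -0.40) lay closer together.

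**Figure D4:**
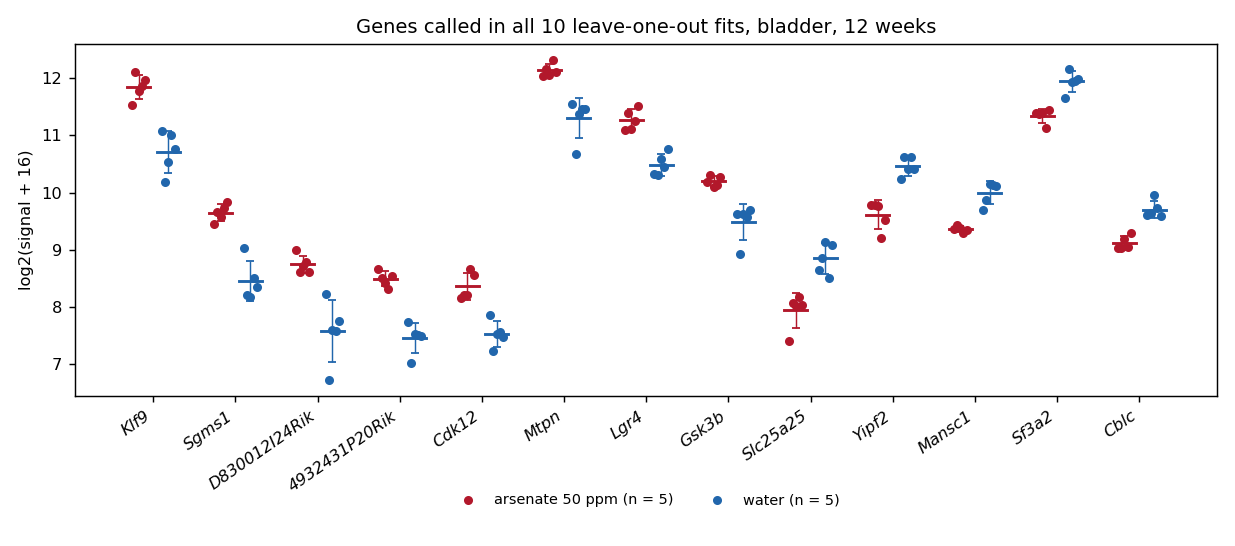
Levels as log2(signal + 16) (y axis) of 13 genes called in the full fit and in all 10 fits that left out 1 array, in each bladder at 50 ppm (red) and in water (blue) at 12 weeks; points are mice, long bars are means and thin bars are SD, n = 5 each. No bladder at 50 ppm overlaps a water bladder for Klf9, Sgms1, Gsk3b or Slc25a25.

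The 50 ppm group was also set directly against the mean of the 0.5, 2 and 10 ppm groups at 12 weeks, a difference that takes no water mean, although the water arrays enter its estimate of spread. It called 1 gene of 14618 (0.00684%), and 1471 genes had an unadjusted p under 0.05 in limma. The gene was 1810019D21Rik, at -0.41 ± 0.07 (adjusted p = 0.0309), and it averaged 11.96 in water, 11.86 at 0.5 ppm, 11.99 at 2 ppm, 11.86 at 10 ppm and 11.49 at 50 ppm. Foxo3 at 0.43 ± 0.09 and 4932431P20Rik at 0.68 ± 0.13 followed without being called (adjusted p = 0.133 each). Over the 594 genes, which were chosen on these arrays, the median size of the difference from the lower doses was 0.267 and from water 0.542. The water mean lay outside all 4 arsenate means, on the side opposite to the change, for 522 of them, and the 50 ppm mean was the other extreme for 504.

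**Figure D5:**
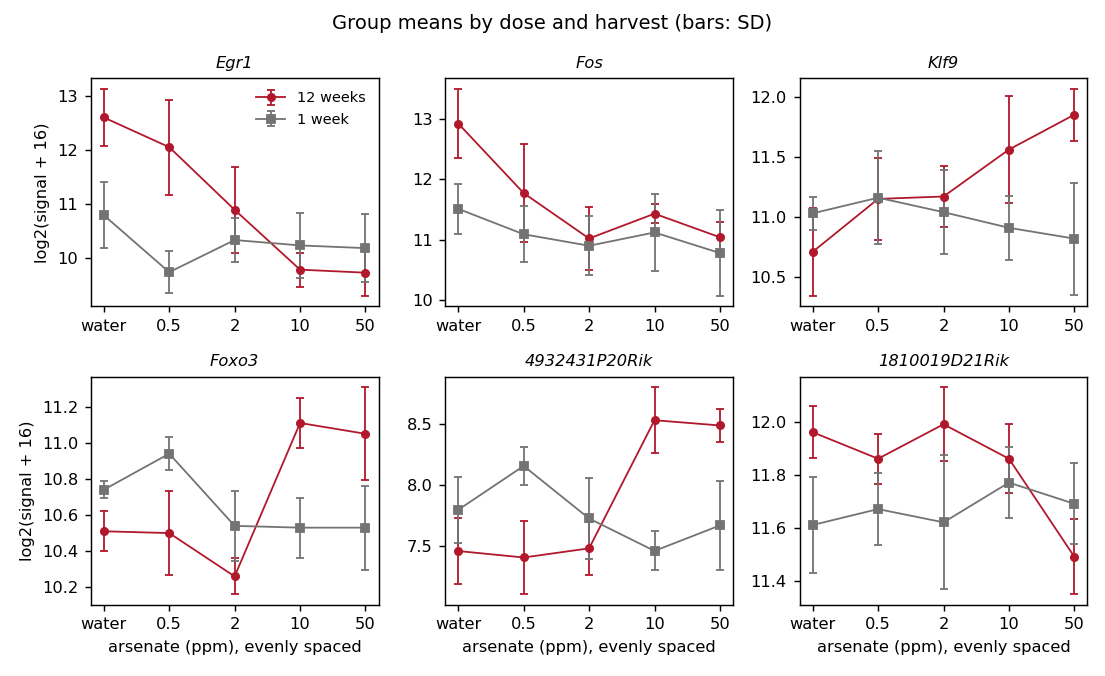
Mean level as log2(signal + 16) (y axes, scaled per gene) by arsenate dose in ppm, evenly spaced, with water at the left (x axes), at 12 weeks (red circles) and 1 week (grey squares); bars are SD, n = 5 a group and 4 at 0.5 ppm at 1 week. Egr1 declines over the 12-week doses to 9.73, while at 12 weeks Foxo3 and 4932431P20Rik are higher at 10 and 50 ppm than at the lower doses and in water.

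The 50 ppm difference itself was compared between harvests over all 49 arrays. It differed for 1076 genes (7.36%), 527 of them (3.61%) with a more positive difference at 12 weeks and 549 (3.76%) with a more negative one. At 1 week 49 of the 14618 genes were called for 50 ppm against water. Of these 49, 3 were among the 594 called at 12 weeks, which were 4.06% of all genes. Of the 594, 149 had a 1-week change of the same sign, and the rest did not. Klf9 averaged 10.82 at 50 ppm and 11.03 in water at 1 week, and its difference between harvests was 1.35 ± 0.28 (adjusted p = 0.00363). For Sgms1 it was 1.65 ± 0.28 (adjusted p = 0.000685), for Gsk3b 1.12 ± 0.16 (adjusted p = 0.000134) and for Cblc -0.98 ± 0.14 (adjusted p = 0.000134). Part of this comes from 1-week changes of the opposite sign, -0.46 for Sgms1, -0.41 for Gsk3b and 0.39 for Cblc, none of them called. The difference between harvests was 0.76 ± 0.15 for Foxo3 and 0.92 ± 0.18 for Wwtr1 (adjusted p = 0.00318 and 0.0022), with 1-week changes of -0.21 and -0.24.

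The 6 largest called positive differences between harvests belonged to genes of liver, Serpina1b, Alb, Plg, Gnmt, Fga and Fabp1. Serpina1b, an antitrypsin, averaged 4.68 at 50 ppm and 4.73 in water at 12 weeks, near the floor, but 5.05 at 50 ppm and 8.69 in water at 1 week. Alb, serum albumin, averaged 6.37 at 50 ppm and 6.29 in water at 12 weeks, but 6.96 at 50 ppm and 9.85 in water at 1 week. None of 16 liver markers was called at 12 weeks in limma, with 1 at an unadjusted p under 0.05 and a median change of -0.211, while the median at 1 week was -2.37. The part of liver RNA in the 1-week arrays in these differences was not tested.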

How the data were processed

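Total RNA of each bladder was hybridised to an Affymetrix whole-genome mouse array, 1 mouse per array and no pool, per the labels. The values are the authors' deposited signal intensity per probe set on a linear scale. GCOS 1.0 is named in the submitters' processing notes, with no settings. The 2% trimmed mean of every array was between 500.003 and 500.004, so the arrays were already scaled, and no further normalization was applied. Of 45101 probe sets, 64 controls, 932 with several genes and 9160 with no gene were left out of the gene tests. For each gene, the probe set with the highest mean over all arrays was kept. Genes above the 40th percentile in at least 4 arrays were tested, 14618 of 18194, with symbols of the platform annotation, and 14543 of them had a match in RefSeq. Values were set to log2(intensity + 16) and fitted with limma 3.58.1 in R 4.3.3 (data.table, version 1.17.8) over the 25 arrays of 12 weeks, or all 49 for the difference between harvests, with Benjamini-Hochberg adjustment over all genes. P-values measure the spread between mice. Figures and sequences used Python 3.11.15, pandas 2.3.3 and matplotlib 3.10.9.

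The genes and gene lists were chosen with earlier results of these data known. Named were the 12 largest called rises and falls with groups apart and a mean of at least 6 in the lower group, the 6 members of lowest p at most from each list described, the fixed genes As3mt, Hmox1, Nqo1, Gclm, Mt1, Mt2, Egr1, Fos, Ccn1, Cdkn1a and Klf9, the 8 largest rises and falls called in every fit that left out 1 array, and the 6 largest called differences each way between harvests. Other genes named, such as Zfp36, Csrnp1, Egr2, Egr3, Atf3, Jun, Nr4a3, Zbtb16, Fkbp5, Ccn2 and Cdk1, were chosen after their values were seen. In data simulated for 50 ppm against water over 14618 genes, the fit recovered 44.8% of genes changed 1.5-fold and 67.2% of those changed 2-fold. It recovered 98.5% of those changed 4-fold, and 9 of 149 calls were false. The simulated noise was independent between genes and arrays, with no outlying array and no group difference in spike level. The measured arrays differ in these respects, so the simulated rates cannot be carried over to them. Alternatives were other offsets, quantile normalization, other filters, every probe set, array weights, covariates for RNA integrity and for spike levels, a replicate block, other sets of arrays and leaving out each array.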

Additional observations from a re-analysis of the deposited data

Results flagged for a closer look

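Of 180 groups of 5 arrays examined, 14 held 1 array whose gap to the nearest of the others was large for the group's range, and chance alone gives such a gap in about 1 in 20 groups. At 50 ppm the array set apart was the lowest of its group for Aqp7 (replicate 5, 4.079), Sf3a2 (replicate 4, 11.13) and Slc25a25 (replicate 1, 7.404). In water it was the lowest of its group for As3mt (replicate 3, 8.289), Ccn1 (replicate 3, 9.064), Gsk3b (replicate 2, 8.931), Klf15 (replicate 5, 6.037), Mtpn (replicate 2, 10.68), Phlda3 (replicate 1, 11.36), Psma6 (replicate 4, 13.00) and Slc39a4 (replicate 1, 7.605). In water it was the highest for Emb (replicate 1, 7.416) and Ulk4 (replicate 3, 7.926). The array median of water replicate 2, 6.691, was set apart from the other water arrays in the same way.

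For 59 of the 93 named genes, the difference between 50 ppm and water was called as different between the harvests, at 12 weeks minus 1 week, by the interaction term of limma over all 49 arrays, against 7.36% of all genes. The named genes were chosen for their changes at 12 weeks, and 12 of them for this very difference, so the count is raised by the choice. The most positive values belonged to Serpina1b at 3.6, Alb at 2.97, Plg at 2.69, Gnmt at 2.66, Fga at 2.6 and Fabp1 at 2.56. Values from 1 to 2 were found for Sgms1 at 1.65, Lrch2 at 1.64, Cenpq at 1.59, Rbm25 at 1.59, Pmaip1 at 1.58, Emb at 1.57, Synm at 1.55, D830012I24Rik at 1.36, Klf9 at 1.35, Pdia4 at 1.3, Mob1b at 1.26, Ptbp2 at 1.18, Cdk12 at 1.17, 4932431P20Rik at 1.16, Mtpn at 1.13, Gsk3b at 1.12, Lgr4 at 1.11, Tead1 at 1.05 and Tsc22d3 at 1.03. Smaller positive values were found for Homer1 at 0.977, Tyms at 0.927, Wwtr1 at 0.918, Clock at 0.901, Igf1r at 0.788, Foxo3 at 0.761, Pik3r1 at 0.699, Dnajb9 at 0.668, Timp3 at 0.648, Pcna at 0.587, Psmd6 at 0.546, Yap1 at 0.487 and Psma3 at 0.389. The most negative values belonged to Ccn1 at -2.58, Clcn5 at -2.3, Egr1 at -2.26, Akap4 at -2.23, Opalin at -2.12, Aqp7 at -2.09, Ulk4 at -1.24, Slc25a25 at -1.15 and Klf2 at -1.04. Smaller negative values were found for Rprm at -0.986, Cblc at -0.981, Zdhhc9 at -0.978, Yipf2 at -0.964, Slc39a4 at -0.841, Cry2 at -0.68, Sf3a2 at -0.68, Gstm2 at -0.669, Ern1 at -0.595, Osgin1 at -0.587, 1810019D21Rik at -0.553 and Ddit4 at -0.512. The age of the mice also differs between the harvests, and the part of age was not tested.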

How the results depend on the processing

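The count of 594 genes at 50 ppm against water became 944 with every probe set tested, 1331 with array weights and 285 with RNA integrity as a covariate. With the poly-A level as a covariate the count was 1, a gene outside the 594. The count became 354 with only the 10 arrays, where 70.1% were higher against 56.4%, and 1187 with all 49 arrays. It ran from 47 to 1617 when 1 array was left out. Quantile normalization gave 557 with 271 higher. Against the lower doses the count of 1 became 2 with quantile normalization, 220 with array weights and 0 with every probe set, RNA integrity, poly-A or hybridization level as a covariate, and it ran from 0 to 3 when 1 array was left out. Between harvests the count of 1076 became 1918 with every probe set and 92 with the poly-A level, and ran from 484 to 1799. Deviations of same-numbered 50 ppm and water arrays correlated at -0.0825 to 0.0462, which cannot show whether the numbers pair the mice. The replicate block gave 637, 0 and 1085 genes. With 1 array left out the poly-A difference ran from -1.02 to -0.741 and that of the hybridization controls from 0.369 to 0.581. Of 1926 values of 84 named results, 1920 kept their direction. With the poly-A level as a covariate Mt1 turned to 0.17, Cdkn1a to 0.23, Osgin1 to 0.0592 and Atp7a to -0.0639, and with the hybridization level As3mt turned to 0.0748 and Gclm to -0.00151. The causes were not tested. The number of arrays limits the precision.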

Other observations

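Among cell type lists not described above, an immunoglobulin light chain segment stood out. Igkv15-103, a kappa variable segment of B and plasma cells, had 13.07, 9.25, 7.95, 6.12 and 5.71 at 50 ppm, against 4.85, 5.55, 4.35, 4.39 and 4.44 in water. All arsenate bladders lay above all water bladders, over a very wide range, and the change was 3.70 ± 0.97 (limma, adjusted p = 0.0336, called in 4 of 10 fits that left out 1 array). At the lower doses it averaged 4.90 at 0.5 ppm, 7.36 at 2 ppm and 4.57 at 10 ppm. It was the 1 called gene of 10 in the B and plasma cell list (10%, against 4.06% of all genes), whose median change was -0.039. In the endothelial list 1 of 12 rose (8.33%, against 4.06% of all genes), the receptor Tie1 at 0.90 ± 0.25. In the macrophage list 1 of 13 rose (7.69%, against the same 4.06%), the hyaluronan receptor Lyve1 at 0.87 ± 0.23. The lipid droplet protein Cidea rose by 1.40 ± 0.40, with groups that overlapped. It was the 1 called gene of 8 in the adipocyte list (12.5%, against 4.06% of all genes). A single call in a list does not describe its cell type.

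Of 17 bladder contraction genes 1 was called (5.88%, near the 4.06% of all genes), the cGMP-dependent kinase Prkg1, which rose by 0.77 ± 0.22. In the squamous list, 1 of 19 was called (5.26%, near the 4.06% of all genes), the corneodesmosome protein Cdsn at -1.38 ± 0.34. The stratified epithelial keratin Krt13 was at 1.47 ± 0.53 without being called. The tight junction protein Cldn19 changed by -1.35 ± 0.40, the 1 call among 17 genes of that list (5.88%, near the 4.06% of all genes). Traf3ip3 changed by -1.54 ± 0.39, the 1 call among 26 genes of NF-kB and inflammation (3.85%, near the same 4.06%). Both lay near the floor at 50 ppm. The mesothelial gene Lrrn4 changed by -0.59 ± 0.17, the 1 call among 9 genes of that list (11.1%, against 4.06% of all genes). No gene was called among 36 of oxidative phosphorylation or 28 interferon-stimulated genes in limma. An unadjusted p under 0.05 was found for 6 and 2 of them, against 3528 of all 14618 genes, and the medians were -0.0239 and -0.0916.

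Beyond those named by rule, other genes were called in the full fit and in all 10 fits that left out 1 array, and they are named here after their values were seen. Ywhaz, a 14-3-3 adaptor protein, had 13.14, 13.07, 12.95, 13.33 and 13.43 at 50 ppm, against 12.85, 12.14, 12.48, 12.57 and 12.78 in water. The groups did not overlap, and the change was 0.62 ± 0.11 (limma, adjusted p = 0.0057). Slk, a kinase of the actin cortex, changed by 0.64 ± 0.11, Hipk1, a nuclear homeodomain-interacting kinase, by 0.51 ± 0.09, and Eif2s3x, a subunit of a translation initiation factor, by 0.60 ± 0.12. Atg3, an enzyme of autophagosome formation, changed by 0.51 ± 0.10, and Atp2a2, the calcium pump of the sarcoplasmic and endoplasmic reticulum, by 0.34 ± 0.07. On the lower side were Gne, the first enzyme of sialic acid synthesis, at -0.51 ± 0.10 and Hspbp1, an Hsp cochaperone, at -0.57 ± 0.12.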
